A study of Mus musculus with 12 samples.

Results

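A set of 10 genes that mark the vessel wall was followed in the RNA of the embryonic mouse pallium, the dorsal part of the forebrain that forms the cortex. They were chosen by name, 10 of the 54735 gene symbols in each library. Cldn5, Pecam1, Kdr, Flt1, Tie1, Tek and Cdh5 mark endothelial cells, and Pdgfrb, Rgs5 and Kcnj8 mark mural cells, the pericytes and smooth muscle cells that wrap the endothelium. All 10 were found in all 12 libraries and none was at 0 in any of them, so the tissue held RNA of both cell types. The embryos were of strain C57/Bl6 at stage E13.5, with 4 in each of 3 groups. Control embryos were Rnu11wt/flx::Trp53wt/wt::Emx1-Cre+, embryos called cKO were Rnu11flx/flx::Trp53wt/wt::Emx1-Cre+, and embryos called dKO were Rnu11flx/flx::Trp53flx/flx::Emx1-Cre+. Rnu11 encodes U11, an RNA component of the machinery that splices minor introns, and Trp53 encodes p53. Emx1-Cre was present in all 12 embryos, and the control embryos carried 1 floxed Rnu11 allele with it. A group with floxed Trp53 and unfloxed Rnu11 was not analysed here. Nothing in the labels says whether embryos were littermates.

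Vessels enter the pallium from the surrounding mesenchyme, and neither endothelial cells nor pericytes descend from the Emx1-expressing progenitors in which this Cre line deletes floxed alleles. Growing vessels follow Vegfa made by neural progenitors, which binds Kdr on endothelial cells, while Flt1 binds the same ligand and acts largely as a decoy. Endothelial platelet-derived growth factor B recruits pericytes through Pdgfrb, and angiopoietins act through Tek. The question was how the level of these genes compares between the groups, as a gauge of tissue outside the Emx1 lineage in the dissected pallium.

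In bulk tissue, more cells of a type and more RNA per cell cannot be told apart. Values are TPM, a length-scaled share of each library, so levels of different genes can be compared. TPM keeps no depth, and the depth of each library is unknown. In the order control, cKO and dKO, the targeted genes measured 640.5 ± 86.4, 144 ± 20.4 and 164 ± 26.3 TPM for Rnu11 and 3.82 ± 1.73, 4.24 ± 0.404 and 1.22 ± 0.252 TPM for Trp53 (SD, n = 4). Protein-coding genes of the nuclear genome held only 14.4% to 20.0% of a library. Mitochondrially encoded genes are left out of this set, which also serves for the protein-coding sums and shares below. All 4 cKO libraries had more symbols above 0 than any control library (27718 to 29223, against 25418 to 26618), and the median tested gene was 0.25 higher in cKO than in control on the log2(TPM + 1) scale. Changes in cKO are therefore given as deposited and again after median-shift centring, which shifts each library so that its median gene equals that of the mean library. A further pair of scalings, by the protein-coding sum and by the median ratio of genes (ratio scaling), is named where they change the call of a member. Sums over lists are as deposited unless a scaling is named.

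The members were of low abundance, and their order was nearly the same in the 3 groups. In control, Pecam1 (3.20 ± 0.381 TPM, SD, n = 4) and Kdr (3.06 ± 0.357) were highest. Cldn5 followed at 1.74 ± 0.368, Rgs5 at 1.34 ± 0.108 and Tie1 at 1.15 ± 0.278 TPM. Below them came Cdh5 at 0.846 ± 0.211, Kcnj8 at 0.777 ± 0.164, Tek at 0.749 ± 0.102, Flt1 at 0.618 ± 0.174 and Pdgfrb at 0.437 ± 0.191 TPM. The control embryos overlapped between each neighbouring pair in this order except Kdr and Cldn5. In both mutant groups Kdr stood above Pecam1, with overlapping embryos, and the order of the other 8 was that of the controls. The filter for testing was a mean of at least 1 TPM over the 12 libraries, which 8 of the 10 genes passed. Flt1 and Pdgfrb did not, and Cdh5, Kcnj8 and Tek passed although their control means were below 1 TPM, through their higher mutant values.

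**Figure D1:**
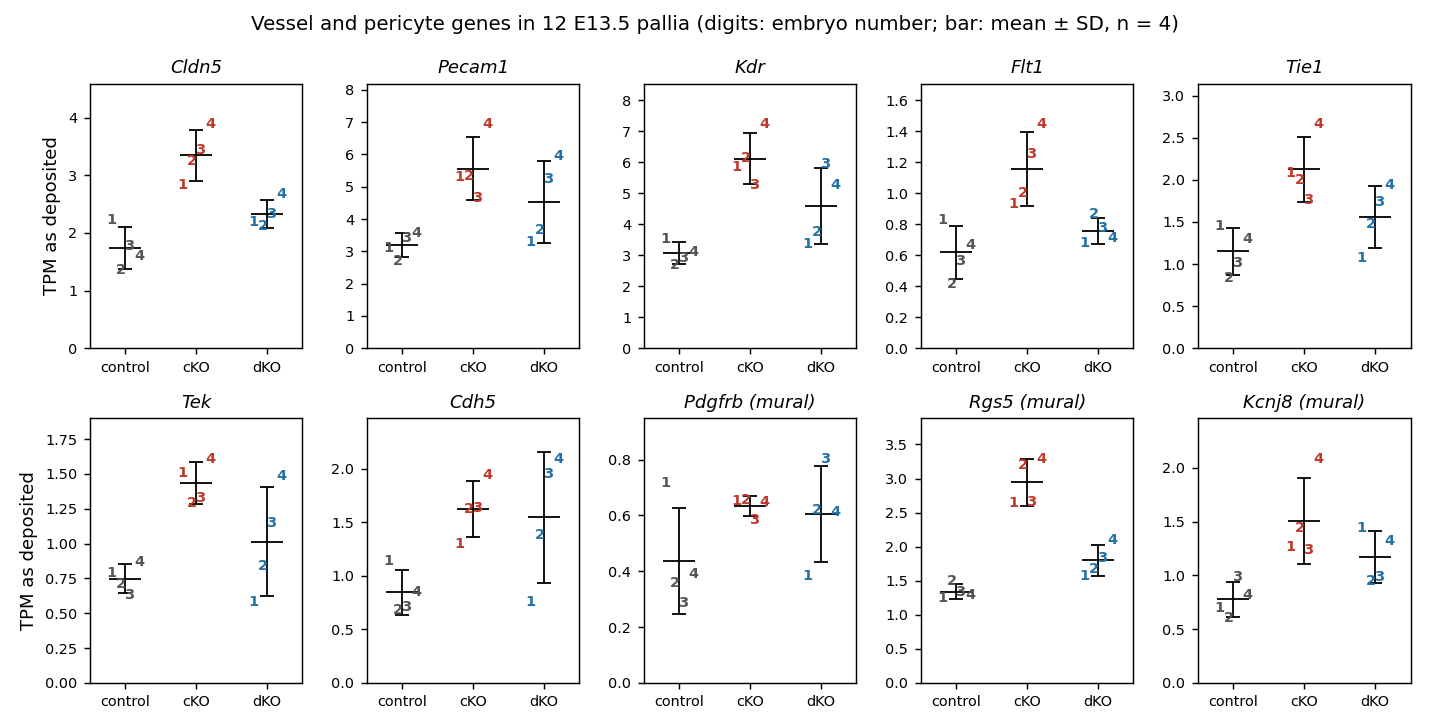
TPM as deposited (vertical axes from 0, one panel per gene) in control, cKO and dKO embryos, with digits for the embryo number and bars for mean ± SD (n = 4). In 9 of 10 panels the 4 cKO embryos lie above the 4 control embryos, Pdgfrb being the exception, and dKO embryos 3 and 4 lie above dKO embryos 1 and 2 for Pecam1, Kdr, Tie1, Tek and Cdh5.

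The promoters of Cldn5, Kdr and Rgs5 are shown as context, since these members were called higher in cKO under each of the 4 scalings with the filter, and that of Tie1 because it held the most copies of the word marked below, a choice made after the count was seen. RefSeq promoter windows on GRCm38.p6, from 250 bases before to 50 after the start, were at hand for 7 of the 10 genes and are written 5′ to 3′ on the strand of the gene. Pecam1, Cdh5 and Pdgfrb are named only. Capitals mark GGAA or its reverse complement TTCC, the core word read by ETS factors such as Erg and Fli1, which are known regulators of endothelial genes. The Cldn5 window is chr16:18776597-18776896 (+), that of Kdr chr5:75978406-75978705 (-), that of Rgs5 chr1:169655251-169655550 (+) and that of Tie1 chr4:118489800-118490099 (-).
Cldn5: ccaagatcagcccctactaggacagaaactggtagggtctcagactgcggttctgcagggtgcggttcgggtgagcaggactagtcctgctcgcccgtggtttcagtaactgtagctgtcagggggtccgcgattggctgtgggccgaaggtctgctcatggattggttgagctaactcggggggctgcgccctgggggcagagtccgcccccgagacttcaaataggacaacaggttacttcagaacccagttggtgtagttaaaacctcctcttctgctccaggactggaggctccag
Kdr: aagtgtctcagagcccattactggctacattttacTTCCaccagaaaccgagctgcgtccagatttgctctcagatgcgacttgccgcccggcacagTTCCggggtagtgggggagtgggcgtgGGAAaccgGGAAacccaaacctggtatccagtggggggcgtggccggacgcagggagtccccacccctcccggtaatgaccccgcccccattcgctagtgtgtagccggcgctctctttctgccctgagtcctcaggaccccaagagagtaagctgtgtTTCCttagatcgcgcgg
Rgs5: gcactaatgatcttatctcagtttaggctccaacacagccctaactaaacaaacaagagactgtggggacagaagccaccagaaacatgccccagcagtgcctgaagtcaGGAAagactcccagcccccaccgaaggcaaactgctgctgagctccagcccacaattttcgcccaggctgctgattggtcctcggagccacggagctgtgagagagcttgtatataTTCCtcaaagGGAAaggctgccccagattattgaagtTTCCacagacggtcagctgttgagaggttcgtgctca
Tie1: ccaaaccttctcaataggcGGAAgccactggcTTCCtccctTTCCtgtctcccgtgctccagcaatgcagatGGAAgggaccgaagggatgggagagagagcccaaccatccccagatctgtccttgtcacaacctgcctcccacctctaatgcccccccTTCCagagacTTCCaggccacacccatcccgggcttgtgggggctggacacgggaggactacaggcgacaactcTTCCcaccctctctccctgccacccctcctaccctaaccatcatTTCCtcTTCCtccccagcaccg
The word GGAA, searched on both strands, occurred 9 times in the Tie1 window, 5 times in Kdr, 4 times each in Flt1 and Rgs5, 2 times in Tek, 1 time in Kcnj8 and 0 times in Cldn5. It is common: 96.0% of 32851 mouse promoter windows of this length held it. The longer words CGGAAG or AGGAAG, which contain it, occurred in 2 of the 7 members (Tie1 and Flt1) and in 46.5% of all windows. The GATA word AGATAA occurred in Tek and Rgs5 and in 11.2% of all windows. Cldn5 held none of these words, and Kdr and Rgs5 held the core word but neither of the longer ETS words.

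The first comparison, of cKO with control, asks how vessel wall RNA stood after loss of U11 in the pallium. The 8 vessel genes that passed the filter rose as deposited, by 0.48 to 0.81 on the log2(TPM + 1) scale, where 34.3% of all 11764 tested genes were called higher. Since Cdh5, Kcnj8 and Tek entered the test through their mutant values, nothing is read from that count. In the fit with no filter, which takes all 10 members, 8 were called higher as deposited (11% of 39624 genes were), all but Cdh5 and Pdgfrb. After median-shift centring Cldn5, Kdr and Rgs5 were called among those past the filter (3 of 8, against 3.72% of all genes), and the other 5 missed the threshold with positive estimates. Of these 3 calls that of Rgs5 held on leaving out any single embryo, that of Cldn5 was lost without control embryo 4 (limma adjusted p = 0.0519), and that of Kdr was lost without any of 6 embryos (control 2, 3 or 4, or cKO 1, 2 or 4; adjusted p up to 0.0652). The median change of all 10 members was 0.53 as deposited, where the median tested gene was at 0.25, and 0.28 after centring, where it was at -0.00. For all 10 genes together the cKO embryos lay above every control embryo in 9, under each of the 4 scalings. Among all tested genes this was so for 32.7% as deposited, 13% after centring, 20.6% after protein-coding rescaling and 9.33% after ratio scaling. In this count, in sums and in the order of embryos, centring multiplied the TPM of each library by a factor from its median shift. The shifted log2(TPM + 1) values were not compared in this way, and there the count may differ. Ratio scaling called the same 3 genes with the filter (3.96% of all genes). Without it, Cldn5 and Rgs5 were called (1.5% of all genes), and Kdr had a limma adjusted p of 0.0555. Rescaling by the protein-coding sum called 6, adding Pecam1, Tie1 and Kcnj8 (11.3% of all genes). With no filter the calls of Pecam1 and Tie1 under this rescaling were lost (limma adjusted p = 0.0956 and 0.0757).

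Kdr, the main signalling receptor for Vegfa on endothelial cells (chr5:75932827-75978458, minus strand, GRCm38), rose the most on the log2(TPM + 1) scale. By the ratio of means Rgs5 rose more (2.20 times, against 2.00 for Kdr). It stood at 3.53, 2.70, 2.89 and 3.11 TPM in control embryos 1 to 4 and at 5.84, 6.12, 5.28 and 7.23 TPM in cKO embryos 1 to 4. Each cKO embryo was well above the highest control, and the cKO mean was 2.00 times the control mean. The log2(TPM + 1) change was 0.81 ± 0.14 (SE; limma adjusted p = 0.00227) as deposited and 0.56 ± 0.13 after centring (limma adjusted p = 0.0216). Flt1, the other Vegfa receptor of the list (chr5:147561604-147726011, minus strand), stood at 0.829, 0.416, 0.563 and 0.664 TPM in control and 0.930, 1.00, 1.26 and 1.45 TPM in cKO. The groups did not overlap, but the lowest cKO embryo and the highest control embryo lay close together. Being below the filter, Flt1 was taken from the fit with no filter, where its change was 0.42 ± 0.10 as deposited (limma adjusted p = 0.0217) and 0.17 ± 0.09 after centring (limma adjusted p = 0.121). Without control embryo 2, control embryo 3 or cKO embryo 4 the Flt1 call was lost (adjusted p up to 0.0609).

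The receptor kinases of the angiopoietin system, Tie1 (chr4:118471191-118490061, minus strand) and Tek (chr4:94739289-94874976, plus strand), stood lower than Kdr. Tie1, an orphan receptor that modulates Tek, measured 1.45, 0.839, 1.01 and 1.30 TPM in control and 2.08, 2.00, 1.76 and 2.67 TPM in cKO. Tek, which binds Angpt1 and Angpt2, measured 0.788, 0.707, 0.631 and 0.868 TPM in control and 1.50, 1.29, 1.32 and 1.61 TPM in cKO. For both genes every cKO embryo was above every control embryo. Tie1 rose by 0.54 ± 0.13 (SE; limma adjusted p = 0.0106) and Tek by 0.48 ± 0.13 (limma adjusted p = 0.0160) as deposited. After centring the changes were 0.29 ± 0.11 and 0.23 ± 0.13 (limma adjusted p = 0.155 and 0.352), so neither was called.

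Among the genes of the endothelial junction, Cldn5, the tight junction claudin of the blood-brain barrier (chr16:18776847-18778262, plus strand), was called under every scaling. Control embryos 1 to 4 had 2.22, 1.35, 1.78 and 1.60 TPM and cKO embryos 2.83, 3.25, 3.44 and 3.89 TPM, with a clear gap between the groups. Its change was 0.67 ± 0.11 (SE; limma adjusted p = 0.00154) as deposited and 0.42 ± 0.09 (limma adjusted p = 0.0152) after centring. Pecam1, an adhesion molecule of endothelial contacts (chr11:106654217-106750628, minus strand), had 3.12, 2.70, 3.41 and 3.57 TPM in control and 5.31, 5.34, 4.65 and 6.95 TPM in cKO. The change was 0.64 ± 0.15 as deposited (limma adjusted p = 0.00998) and 0.39 ± 0.14 after centring (limma adjusted p = 0.133). Cdh5, the cadherin of endothelial adherens junctions (chr8:104101625-104144511, plus strand), had 1.14, 0.679, 0.713 and 0.850 TPM in control and 1.30, 1.63, 1.63 and 1.94 TPM in cKO. These groups came close, with control embryo 1 just under cKO embryo 1. The change of Cdh5 was 0.51 ± 0.16 as deposited (limma adjusted p = 0.0321), the weakest of the 8 calls, and 0.26 ± 0.15 after centring (limma adjusted p = 0.360). With no filter the Cdh5 call as deposited was lost (limma adjusted p = 0.0677). Leaving out any of 6 embryos (control 2, 3 or 4, or cKO 2, 3 or 4) lost the Cdh5 call, with adjusted p up to 0.0926 over all 12 omissions.

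The mural genes did not move alike. Rgs5, a regulator of G protein signalling that is abundant in pericytes (chr1:169655501-169695813, plus strand), stood at 1.24, 1.49, 1.33 and 1.29 TPM in control and at 2.64, 3.20, 2.65 and 3.29 TPM in cKO. The cKO mean was 2.20 times the control mean, the highest ratio among the 10 genes, and the gap between the groups was wide against the spread within each. Rgs5 rose by 0.75 ± 0.09 (SE; limma adjusted p = 0.000201) as deposited and by 0.50 ± 0.08 (limma adjusted p = 0.00340) after centring. Kcnj8, the pore subunit of a potassium channel of pericytes that closes with ATP (chr6:142564837-142571614, minus strand), had 0.699, 0.603, 0.983 and 0.822 TPM in control and 1.26, 1.45, 1.23 and 2.09 TPM in cKO. The groups were separate, with cKO embryo 4 well above the rest, and the change was 0.49 ± 0.13 as deposited (limma adjusted p = 0.0131) and 0.24 ± 0.11 after centring (limma adjusted p = 0.233). Pdgfrb, the receptor through which pericytes are recruited, had 0.716, 0.357, 0.285 and 0.389 TPM in control and 0.653, 0.655, 0.583 and 0.647 TPM in cKO. Control embryo 1 was above every cKO embryo while the other 3 controls were below them all. Its change in the fit with no filter was 0.19 ± 0.10 as deposited and -0.05 ± 0.10 after centring (limma adjusted p = 0.255 and 0.681), and its direction after ratio scaling was again positive, at 0.09 ± 0.10. With centring applied as a factor on TPM, its means were 0.459 TPM in control and 0.565 TPM in cKO. The negative sign thus belongs to the shifted log2(TPM + 1) values, on which a shift acts unevenly for low genes.

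**Figure D2:**
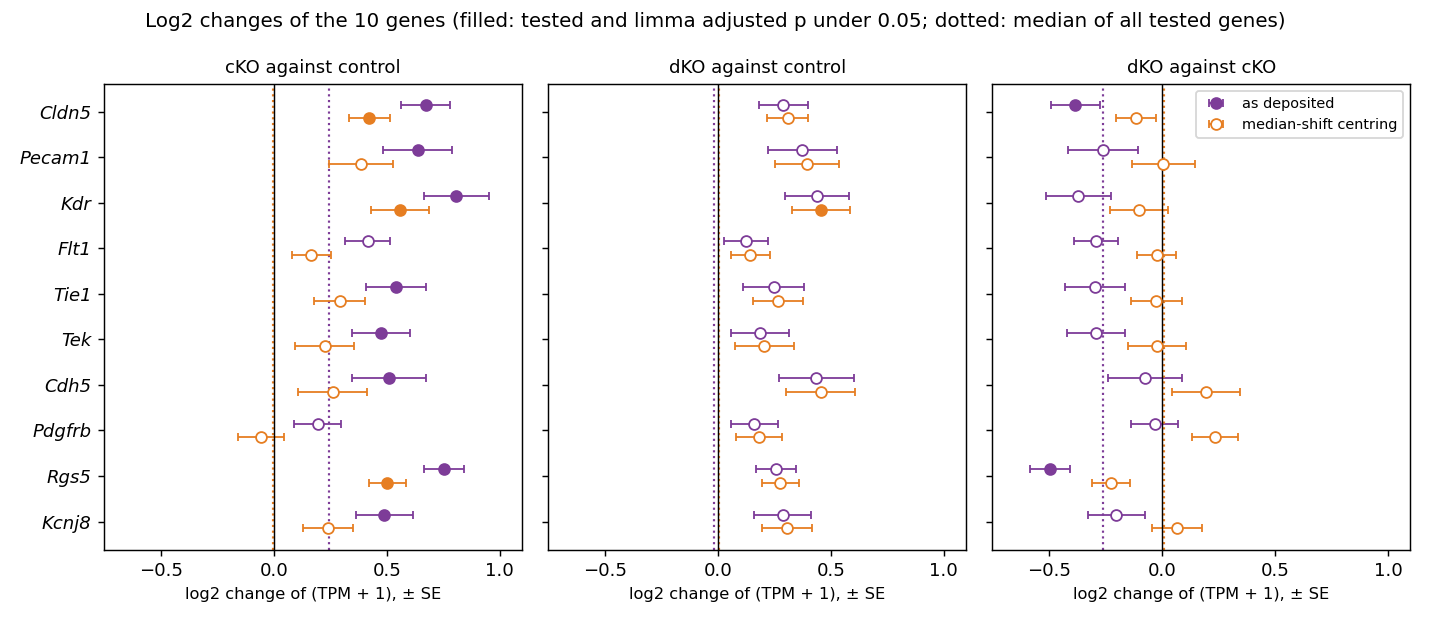
Log2(TPM + 1) change ± SE for each gene (rows) in the 3 comparisons (panels), as deposited (purple) and after median-shift centring (orange); filled points are tested genes with a limma adjusted p under 0.05, and dotted lines are the medians of all tested genes. Flt1 and Pdgfrb were below the filter and are drawn open, from the fit with no filter. In cKO against control 8 purple and 3 orange points are filled, in dKO against control 0 and 1, and in dKO against cKO 2 and 0.

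The second comparison, of dKO with control, asks the same of tissue that had lost both genes; it shares its control embryos with the first. All 8 tested genes had positive estimates, from 0.19 (Tek) to 0.44 (Kdr and Cdh5), but none of the 8 passed the limma threshold as deposited, where 1.79% of all tested genes were called higher, and none of the 10 did with no filter (0.681% of all genes were). With sample weights, which count uneven libraries less, 5 of the 8 were called on the same values, Cdh5, Cldn5, Kdr, Pecam1 and Rgs5 (5.45% of all tested genes were). At an unadjusted p under 0.05, 6 of the 8 were higher, and 8.29% of all tested genes were. Since Cdh5, Kcnj8 and Tek passed the filter through their mutant values, nothing is read from the counts out of 8 in this comparison. After centring 1 of 8 was called, Kdr at 0.46 ± 0.13 (SE; limma adjusted p = 0.0461), against 3.74% of all genes. Ratio scaling also called Kdr alone (3.95% of all genes), and rescaling by the protein-coding sum called Cldn5, Kdr and Rgs5 (3 of 8, against 5.44% of all genes). With no filter, protein-coding rescaling called 0 of the 10. There the limma adjusted p was 0.0883 for Cldn5, 0.110 for Kdr and 0.0931 for Rgs5. The median change of all 10 members was 0.27 as deposited, where the median tested gene was at -0.01, and 0.29 after centring, where it was at 0.01. The centred Kdr call was kept without dKO embryo 1 or 2 and lost without any other single embryo (adjusted p up to 0.115). Without dKO embryo 1, Kdr and Cdh5 were called as deposited. A p that misses the threshold does not show that a gene did not differ: the 95% interval of the Pecam1 change ran from 0.04 to 0.71.

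In 5 of the 7 endothelial genes dKO embryos 3 and 4 both stood above dKO embryos 1 and 2. Kdr had 3.37 and 3.75 TPM in dKO embryos 1 and 2, near the highest control, and 5.94 and 5.27 TPM in embryos 3 and 4, at the level of the lower cKO embryos. Cdh5 had 0.759, 1.38, 1.95 and 2.10 TPM, so embryo 1 was among the controls and embryos 3 and 4 were above every cKO embryo. Pecam1 (3.30, 3.65, 5.25 and 5.96 TPM), Tie1 (1.08, 1.48, 1.73 and 1.94 TPM) and Tek (0.583, 0.839, 1.15 and 1.49 TPM) followed the same order of embryos. The coefficient of variation was larger among dKO than among control embryos for Cdh5 (39.4% against 24.9%), Tek (38.5% against 13.7%), Pecam1 (28.0% against 11.9%), Kdr (26.7% against 11.7%) and Rgs5 (12.8% against 8.07%). It was smaller among dKO embryos for the other 5, among them Tie1 (23.8% against 24.1%), Flt1 (10.9% against 28.1%) and Pdgfrb (28.6% against 43.8%). Cldn5 was the most even in dKO (10.7%), with 2.20, 2.11, 2.34 and 2.68 TPM, and overlapped only control embryo 1. Flt1 had 0.677, 0.863, 0.779 and 0.711 TPM, around the upper controls, with a change of 0.12 ± 0.10 in the fit with no filter (limma adjusted p = 0.669). Symbols above 0 numbered 27053 and 24574 in dKO embryos 1 and 2 and 29300 and 29235 in embryos 3 and 4, so the high embryos were also those with more genes detected; the part of this in the result was not tested.

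Of the mural genes in dKO, Rgs5 had 1.57, 1.68, 1.84 and 2.10 TPM, each above every control embryo (as deposited, 5.14% of all tested genes lay above the controls in this way). Its change was 0.26 ± 0.09 (SE) as deposited (limma adjusted p = 0.120) and 0.28 ± 0.08 after centring (limma adjusted p = 0.0620), so the separation of the embryos did not carry it past the threshold. Kcnj8 had 1.44, 0.948, 0.981 and 1.32 TPM, and here embryo 1 was the highest. Pdgfrb had 0.381, 0.621, 0.803 and 0.614 TPM, within and just above the control range, with a change of 0.16 ± 0.10 in the fit with no filter (limma adjusted p = 0.616).

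The third comparison, of dKO with cKO, sets apart groups whose labels differ in Trp53 alone. As deposited, 2 of the 8 tested genes fell, where 38.8% of all tested genes were called lower. Cldn5 fell by 0.38 on the log2(TPM + 1) scale (SE 0.11; limma adjusted p = 0.0168) and Rgs5 by 0.49 (SE 0.09; limma adjusted p = 0.00198). Without cKO embryo 4 the Cldn5 call was lost (adjusted p = 0.0541) and Rgs5 alone was called. After centring none of the 8 was called with limma (3.83% of all tested genes were lower), 1 had an unadjusted p under 0.05 and lay lower (12.3% of all tested genes did), and Rgs5 stood at -0.23 ± 0.08. Ratio scaling called none of the 8 (4.22% of all genes lower), and rescaling by the protein-coding sum called Rgs5 alone (-0.34 ± 0.09; limma adjusted p = 0.0312; 8.28% of all genes lower). The median change of all 10 members was -0.29 as deposited, where the median tested gene was at -0.26, and -0.02 after centring, where it was at 0.01. After ratio scaling these medians were -0.08 and 0.01, and after protein-coding rescaling -0.16 and -0.08. By the median, the members lay near the median gene as deposited and after centring, and somewhat below it under the other scalings. This distance was not tested. Since the log2(TPM + 1) scale understates changes of low genes such as the members, the paired medians are only roughly comparable. Cdh5, at -0.07 ± 0.16 as deposited and 0.20 ± 0.15 after centring, and Pdgfrb, at -0.03 ± 0.10 and 0.24 ± 0.10, changed sign with the scaling, and neither was called.

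**Figure D3:**
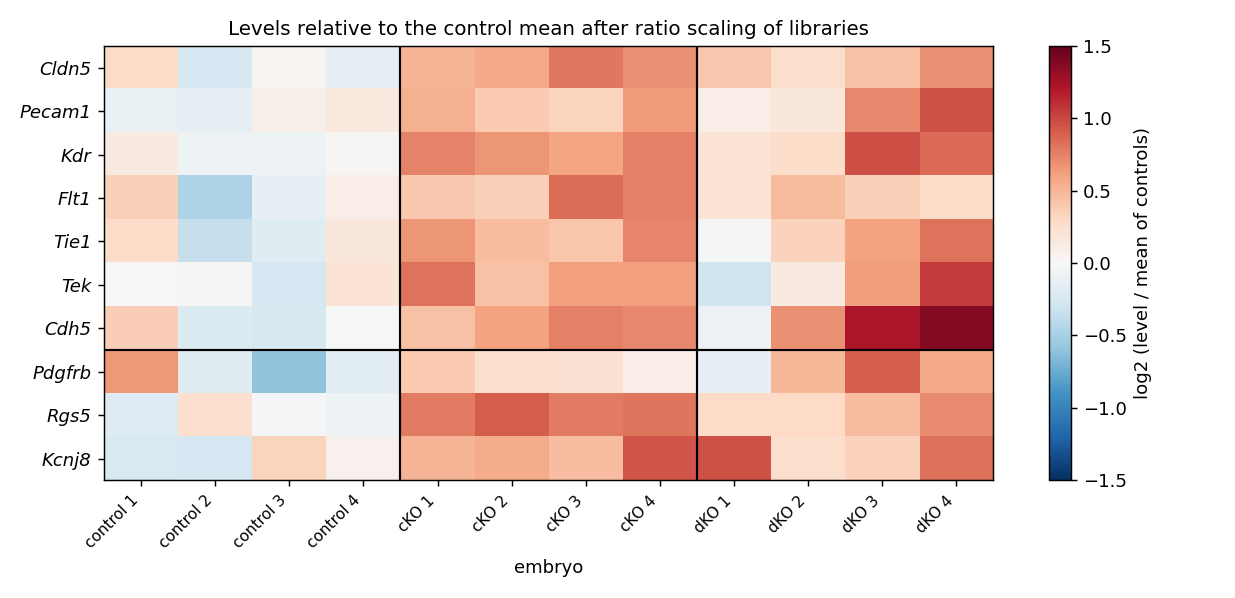
Log2 ratio of each gene (rows) to the mean of the 4 controls in each embryo (columns) after ratio scaling of the libraries; red is above and blue below the control mean. The cKO columns are red in nearly every row, and the dKO columns deepen from embryo 1 to embryos 3 and 4 in the rows of Pecam1, Kdr, Tie1, Tek and Cdh5, with Cdh5 in dKO embryo 4 the deepest.

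Summed over the 10 genes, vessel wall RNA was higher in both mutants than in control, by description and with no test, since the sum is over a chosen list. The sums were 15.7, 11.8, 13.6 and 14.5 TPM in control embryos, 24.3, 25.9, 23.8 and 31.8 TPM in cKO and 15.4, 17.3, 22.8 and 24.2 TPM in dKO. The cKO embryos were above all controls, and 1 of the 4 dKO embryos lay within the control range. Group means were 13.9 ± 1.64, 26.5 ± 3.65 and 19.9 ± 4.23 TPM (SD, n = 4). After ratio scaling, which was chosen after seeing the data, they were 14.8 in control, 22.7 in cKO and 21.6 TPM in dKO. Over all the alternative scalings the cKO mean ran from 22.7 to 24.2 TPM and the dKO mean from 21.4 to 21.6 TPM. The distance between the mutants was smaller than as deposited under each, but how far it closed depended on the scaling. Ratio scaling left the smallest distance, with the lowest cKO mean and the highest dKO mean. The mural and endothelial sums kept their proportion: the mural genes had 0.227 ± 0.0267 of the endothelial sum in control, 0.238 ± 0.0126 in cKO and 0.226 ± 0.0422 in dKO. Within dKO this ratio was 0.284 in embryo 1 and 0.231, 0.189 and 0.200 in embryos 2 to 4, lower in the embryos with the higher endothelial sums.

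Set against RNA of the Emx1 lineage itself, the mutants were closer to each other. Ratios within a library do not depend on its scaling. As a share of the summed TPM of 12 pallial markers (among them Emx1, Pax6, Eomes and Tbr1), the 10 vessel genes were at 6.66%, 5.51%, 5.73% and 6.55% in control embryos, 10.9%, 10.3%, 11.1% and 12.6% in cKO and 10.1%, 8.13%, 14.6% and 15.6% in dKO. All 8 mutant embryos were above all 4 controls. The means were 6.11% ± 0.580, 11.2% ± 0.970 and 12.1% ± 3.57 (SD, n = 4). In dKO the pallial sum itself was lower, at 152 to 213 TPM against 215 to 237 in control and 214 to 252 in cKO. Neurod6 made up much of it, with means of 94.4, 108 and 61.0 TPM in control, cKO and dKO. The sums had means of 227, 235 and 169 TPM in that order. In cKO against control as deposited, Neurod2 was called higher (0.46, limma adjusted p = 0.0455) and Neurog2 lower (-0.49, limma adjusted p = 0.0189). The Neurod2 call was lost without any of 7 embryos. Among these 12 markers, 2 fell in dKO against control as deposited (3.4% of all tested genes were called lower), Eomes of intermediate progenitors by 0.57 (SE 0.12; limma adjusted p = 0.0181) and Neurod6 of young projection neurons by 0.63 (SE 0.16; limma adjusted p = 0.0374). The Eomes call was lost without control embryo 1, 3 or 4 or dKO embryo 3 (adjusted p up to 0.0601), and that of Neurod6 without control embryo 2, 3 or 4 or dKO embryo 1, 3 or 4 (adjusted p up to 0.112) and after protein-coding rescaling (limma adjusted p = 0.0586). After centring 4 of the 12 were called lower in each mutant against control, Emx1 and Eomes in both, where 2.96% of all tested genes were called lower in cKO and 4.69% in dKO. As a share of all nuclear protein-coding TPM the vessel genes held 0.00891% ± 0.000735 in control, 0.0152% ± 0.000511 in cKO and 0.0135% ± 0.00323 in dKO.

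**Figure D4:**
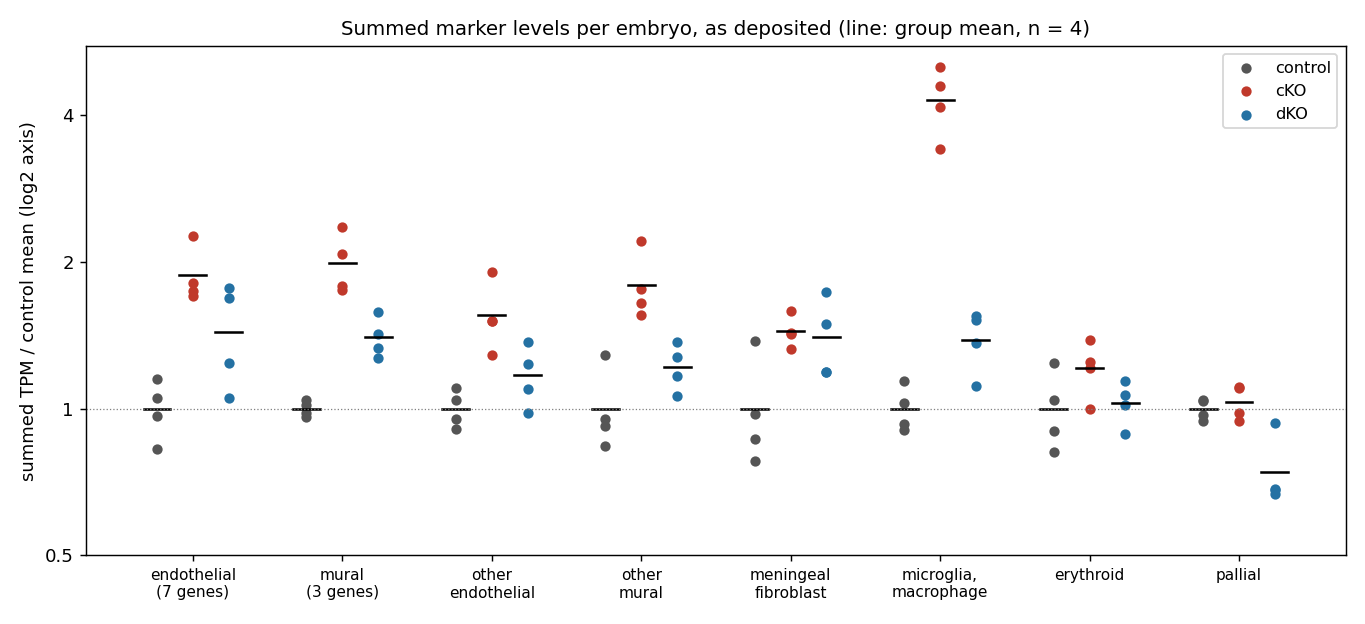
Summed TPM of each marker list divided by the control mean of that list (vertical axis, log2 scale), as deposited, with 1 point per embryo and a line at the group mean (n = 4). The endothelial and mural sums of cKO lie at 1.88 and 1.99 times the control mean, the microglia and macrophage sum at 4.29 times, and the dKO pallial sum at 0.743 times.

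The same embryo was often at the edge of its group. As deposited, control embryo 1 was the highest of its group for 6 of the 10 genes and control embryo 2 the lowest for 7. Within cKO, embryo 4 was the highest for 9 of 10 as deposited, but for 5 after centring, 4 after ratio scaling and 3 after protein-coding rescaling; it also had the highest protein-coding share of all libraries (20.0%) and the largest median shift. Within dKO, embryo 1 was the lowest for 8 and embryo 4 the highest for 6 under each of the 4 scalings. Leaving out cKO embryo 4 lowered the summed cKO level to 24.7 TPM, still above every control embryo.

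The 5 tested endothelial members other than Cldn5 varied together within groups. The measure of likeness was Pearson's r over the 12 embryos between a gene's centred log2(TPM + 1), less its group mean, and the mean of the 6 tested endothelial members treated the same way (Flt1 was below the filter). It is a description, since the points share libraries and most of the variation came from the dKO embryos (-0.28, -0.16, 0.16 and 0.29 for embryos 1 to 4, against at most 0.08 from the mean in the other groups). Cdh5 (r = 0.928), Kdr (0.926), Tie1 (0.915), Pecam1 (0.904) and Tek (0.887) followed it, being part of it, while Cldn5 did so less (0.574). Rgs5 stood at 0.438 and Kcnj8 at -0.04, where 84.7% and 50.1% of all other tested genes were lower. The 10 genes outside the list that were most alike were Ssr2 (0.976), Bckdk (0.955), Cd93 (0.949), Gapdh (0.938), Pimreg (0.932), Naxe (0.931), Cavin1 (0.929), Pskh1 (0.922), Hist1h2bm (0.919) and Coro1b (0.914). Of these, Cd93, a C-type lectin receptor of endothelial cells, and Cavin1, a coat protein of caveolae, were called higher in dKO against control after centring, at 0.51 (limma adjusted p = 0.0415) and 0.43 (limma adjusted p = 0.0336). Hist1h2bm, a gene of histone H2B, was called lower in cKO (-0.86; limma adjusted p = 0.00149) and in dKO (-0.65; limma adjusted p = 0.00875) against control after centring. Ssr2, a subunit of the translocon-associated complex of the endoplasmic reticulum, and Gapdh, the glycolytic enzyme, are expressed in every cell type and did not pass the test in any comparison after centring.

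Other genes of the vessel wall were taken from lists drawn up by known function. Of 20 further endothelial genes, 11 were tested and 9 rose in cKO against control as deposited (34.3% of all genes did), with a median of 0.55; after centring 3 of 11 were called (Clec14a, Egfl7 and Esam; 3.72% of all genes were), with a median of 0.31. Of the 11, Esam passed the filter with a control mean below 1 TPM. Clec14a, a lectin-like endothelial receptor, rose from 1.55 ± 0.104 to 3.46 ± 0.310 TPM (0.81 ± 0.11, SE, as deposited; 0.56 after centring; limma adjusted p = 0.000465 and 0.00768). Ramp2, the adrenomedullin co-receptor, went from 1.75 ± 0.497 to 3.49 ± 0.836 TPM and was called as deposited (0.71 ± 0.17; limma adjusted p = 0.0101) but not after centring (0.46; limma adjusted p = 0.1004). Of 14 other mural genes 4 were tested and 3 rose as deposited (against 34.3% of all genes), while Mcam alone, an adhesion molecule of pericytes and endothelium, was called after centring (1 of 4, against 3.72%). Tagln, 1 of the 4, had a control mean below 1 TPM. The control, cKO and dKO levels of Mcam were 2.47 ± 0.298, 4.98 ± 0.615 and 2.50 ± 0.438 TPM, and it fell in dKO against cKO both as deposited and after centring (limma adjusted p = 0.000539 and 0.00890). In dKO against control, limma called none of the 15 tested genes of these lists as deposited (1.79% of all genes were called higher). An unadjusted p under 0.05, in either direction, was found for 2 of the 11 endothelial and 1 of the 4 mural genes. Among all 11764 tested genes it was found for 2368. After centring Esam was called (3.74% of all genes were), and after protein-coding rescaling Esam and Tagln (5.44%).

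Of the genes of the blood-brain barrier, 8 were tested and 2 rose in cKO against control as deposited (34.3% of all genes did) and 1 after centring (3.72%), with medians of 0.26 and 0.01, near those of all genes. The gene called both times was Itm2a, a membrane protein enriched in brain endothelium, with control, cKO and dKO levels of 11.5 ± 0.556, 19.2 ± 2.11 and 14.5 ± 0.950 TPM (0.69 ± 0.09, SE, in cKO as deposited and 0.44 after centring; limma adjusted p = 0.000297 and 0.00244). Ocln, the tight junction protein occludin, was called as deposited (0.62 ± 0.14; limma adjusted p = 0.00677) and after protein-coding rescaling (limma adjusted p = 0.0317), but not after centring (0.37; limma adjusted p = 0.139) or ratio scaling (limma adjusted p = 0.0655). With a control mean of 0.651 TPM, it passed the filter through its mutant values.

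The ligands that act on the members came next. Vegfa, the ligand of Kdr and Flt1, had control, cKO and dKO levels of 8.45 ± 0.554, 8.97 ± 1.48 and 6.63 ± 0.900 TPM (SD, n = 4). Against control it was not called in cKO (0.07 ± 0.12 as deposited, -0.18 ± 0.11 after centring; limma adjusted p = 0.647 and 0.364) or in dKO (-0.31 ± 0.12; limma adjusted p = 0.144). Angpt1, which activates Tek, had 2.11 ± 0.0647, 2.72 ± 0.394 and 2.58 ± 0.437 TPM and was not called in any comparison under these scalings. Angpt2, its counterpart made by sprouting endothelium, was below the filter at 0.393 ± 0.122, 0.976 ± 0.143 and 0.475 ± 0.0796 TPM, with all 4 cKO embryos above the other 8. Among all tested genes, 32.7% had every cKO embryo above the controls. In the fit with no filter, as deposited, Angpt2 changed by 0.51 in cKO against control (limma adjusted p = 0.00482), where 11% of all genes were called higher. In dKO against cKO its change was -0.42 (limma adjusted p = 0.00841). After centring the estimates were 0.26 and -0.15. Pdgfb, the endothelial ligand of Pdgfrb, was also below the filter, at 0.620 ± 0.168, 0.916 ± 0.224 and 0.850 ± 0.272 TPM. The neural ligands that drive brain angiogenesis and barrier formation differed: Wnt7b had 12.8 ± 2.35, 17.4 ± 2.82 and 11.6 ± 1.78 TPM and was called higher in cKO as deposited (0.42 ± 0.15; limma adjusted p = 0.0445) but not after centring (0.18 ± 0.12; limma adjusted p = 0.431). The Wnt7b call as deposited was lost without any of 7 embryos (control 1, 2 or 3, cKO 1, 2 or 4, or dKO 3; adjusted p up to 0.129). Wnt7a had 3.09 ± 0.367, 2.66 ± 0.497 and 2.21 ± 0.348 TPM and was called lower after centring in cKO (-0.41 ± 0.09; limma adjusted p = 0.0182) and in dKO (-0.33 ± 0.09; limma adjusted p = 0.0438), and in neither as deposited. Protein-coding rescaling did not call Wnt7a in either (limma adjusted p = 0.0654 and 0.0582), and leaving out 1 embryo lost its centred call in 3 of 12 cases in cKO (control embryo 3, cKO embryo 2 or 3) and in 9 of 12 in dKO (all but cKO embryos 1 and 3 and dKO embryo 2). Of the 10 tested genes of this list, 3 were called higher in cKO as deposited (Aplnr, Nrp2 and Wnt7b), a share near the 34.3% of all tested genes. After centring Aplnr alone was called higher (3.72% of all genes were) and Apln and Wnt7a lower (2.96%). Aplnr, the apelin receptor of sprouting endothelium, went from 0.704 ± 0.180 to 2.09 ± 0.295 TPM (0.86 ± 0.13 as deposited and 0.61 after centring; limma adjusted p = 0.000971 and 0.0100), having passed the filter through its mutant values. Nrp2, a semaphorin and growth factor co-receptor, went from 1.53 ± 0.279 to 2.87 ± 0.149 TPM (0.62 ± 0.12 as deposited and 0.37 after centring; limma adjusted p = 0.00297 and 0.0631), and was called after protein-coding rescaling and ratio scaling (limma adjusted p = 0.0201 and 0.0439).

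Markers of other cells outside the Emx1 lineage were read beside the vessel genes. Of 11 tested microglia and macrophage markers, 10 rose in cKO against control both as deposited and after centring (against 34.3% and 3.72% of all genes), with medians of 1.56 and 1.31. Of the 11, 4 had a control mean below 1 TPM (Cx3cr1, Csf1r, Aif1 and Mrc1). Their summed level was 61.5 to 90.4 TPM in cKO, 16.3 to 20.5 in control and 20.0 to 27.9 in dKO. C1qa, a complement subunit made by microglia, had 2.64 ± 0.164, 14.5 ± 2.49 and 3.86 ± 0.769 TPM. None of the 9 tested erythroid markers was called with limma in cKO or dKO against control as deposited or after centring. Of all 11764 tested genes, 4163 and 786 were called in cKO and 610 and 992 in dKO (as deposited and after centring). With an unadjusted p under 0.05 there were 0 of the 9 in cKO and 1 in dKO, under either scaling. Among all tested genes there were 5687 and 2536 in cKO and 2368 and 2878 in dKO. In dKO against control Hbb-bt, an adult beta-globin gene, was called higher after protein-coding rescaling and after ratio scaling (1 of 9, against 5.44% and 3.95% of all genes). The erythroid sums were 2052 to 3113 TPM in control embryos, 2507 to 3471 in cKO and 2231 to 2858 in dKO. Of 6 tested meningeal fibroblast markers, 4 rose in cKO as deposited (34.3% of all genes did) and 1 after centring (Dcn; 3.72%), where ratio scaling called Pdgfra instead (3.96%) and the centred Dcn call was lost without any of 8 embryos (all but control 1 and dKO 1, 2 and 3). In dKO 1 rose as deposited (1.79% of all genes did) and 3 after centring (3.74%). The fibroblast sum ran from 32.3 to 57.2 TPM in control embryos, 54.9 to 65.8 in cKO and 49.3 to 72.1 in dKO, highest in dKO embryo 3. Of 4 choroid plexus markers 1 rose in cKO as deposited (Otx2, where 34.3% of all genes did) and none after centring. After centring 1 of the 4 had an unadjusted p under 0.05, as had 2536 of all 11764 tested genes. The choroid plexus sum ran from 42.2 to 102 TPM in control embryos, 73.2 to 252 in cKO and 68.2 to 299 in dKO, where embryos 3 and 4 were again highest. Of the 2 tested markers of the ventral telencephalon, 1 (Dlx1) rose in cKO as deposited, again against 34.3%. This call was lost without control embryo 1 or 3 or cKO embryo 2 (limma adjusted p up to 0.0764). After centring none was called and 0 had an unadjusted p under 0.05, where 2536 of all 11764 tested genes had. The ventral sums were 2.60 to 5.34 TPM in control, 4.53 to 6.52 in cKO and 2.71 to 8.59 in dKO. No marker on these lists was at 0 in all libraries. The part of these cell types in the vessel results was not tested.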

How the data were processed

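Stranded total RNA libraries from the dorsal telencephalon of 12 embryos were analysed, 4 per genotype, with groups taken from the genotype labels. The deposited files hold TPM by gene symbol for each embryo; this unit was read from the values, since no header names it. Reads were aligned with HISAT2 to mm10, per the submitters' processing notes; the quantifier, the annotation and the handling of shared or antisense reads are not given in the sources used here. The authors' TPM values divide by gene length, so short RNAs take a larger share than their reads alone would give. RNAs outside the nuclear protein-coding set took most of each library and so weighed on the scale of all other genes. Which classes of RNA these were was not tested.

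From the deposited TPM, log2(TPM + 1) was fitted with limma 3.58.1 in R 4.3.3 (lmFit, eBayes with trend; 3 groups in 1 fit) over the 11764 genes whose mean reached 1 TPM. A gene was called where its p, adjusted by Benjamini-Hochberg over all tested genes, was under 0.05. Fold changes on this scale understate those of low genes. Positions come from GENCODE M21 and promoters from RefSeq, both on GRCm38, the build of mm10. Alternatives were 3 scalings (ratio scaling was chosen after seeing the data, because a shift added to log2(TPM + 1) acts unevenly on low genes), a pseudocount of 0.1, no filter, a mean of at least 5 TPM, fits of 2 groups, sample weights, the replicate number as a block, and leaving out each embryo. P-values measure the spread between these embryos. The procedure was tested on simulated data, and plots were drawn with matplotlib 3.10.9.

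The members, lists and tests were chosen with earlier results of these data known. Named genes are the 10 members; from each other list the 2 called genes with the largest changes per direction and comparison, of which those that bear on a result are printed; 6 ligands (Vegfa, Angpt1, Angpt2, Pdgfb, Wnt7a and Wnt7b); and the 10 genes most like the endothelial members. Egfl7, Esam, Emx1, Apln, Tagln, Hbb-bt, Pdgfra, Cx3cr1, Csf1r, Aif1 and Mrc1 were named after their values were seen.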

Additional observations from a re-analysis of the deposited data

Results flagged for a closer look

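In 39 groups of 4 embryos, 1 value stood apart from its group by Dixon's criterion, where chance gives about 1.95. The groups were each member and a few sums in each genotype, and not every summed list was screened. It was Pdgfrb in cKO embryo 3, at 0.583 TPM against 0.647 to 0.655 TPM in the other 3 (gap over range 0.888, critical value 0.829). The distance is small in TPM, since the other embryos lie close together.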

How the results depend on the processing

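Calls depended on how libraries were scaled, on the filter and, in dKO against control, on sample weights. Members called in cKO against control, dKO against control and dKO against cKO numbered 8, 0 and 2 as deposited, 3, 1 and 0 after median-shift centring and after ratio scaling, and 6, 3 and 1 after protein-coding rescaling. Sample weights gave 5 in dKO against control. With a mean of at least 5 TPM no member was left to test, so the counts were 0. Leaving out 1 embryo gave 7 to 8, 0 to 2 (2 without dKO embryo 1) and 1 to 3 (1 without cKO embryo 4). Among all tested genes 4163, 610 and 4636 were called; centring gave 786, 992 and 698, ratio scaling 849, 1059 and 816, protein-coding rescaling 1539, 1080 and 1139, a mean of at least 5 TPM 1900, 294 and 2220, sample weights 1579 in dKO against control, and leaving out 1 embryo 2421 to 4372, 346 to 700 and 3022 to 4814. These counts fell by more than 1.5 times without control embryo 2, cKO embryo 2 or cKO embryo 4 in the first comparison, control embryo 3, control embryo 4 or dKO embryo 3 in the second and cKO embryo 2 or cKO embryo 4 in the third. The lower counts at 5 TPM include the effect of fewer genes tested; for the other settings the cause was not tested.

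On the centred values, a pseudocount of 0.1 gave 3, 3 and 0 members, and leaving out 1 embryo gave 1 to 3 (1 without control embryo 4), 0 to 3 and 0. With no filter the centred counts were 5, 0 and 1. Nothing is read from these, since the share of all genes called in that fit was not counted. For Pecam1 in cKO against control the unadjusted and adjusted limma p were close there (0.0129 and 0.0258). This happens where a large share of all genes passes. Ratio scaling with no filter gave 2, 0 and 0 members. Protein-coding rescaling with no filter gave 4, 0 and 1, and the share of all genes called in that fit was not counted. The summed member level in cKO was 26.5 TPM as deposited, 22.7 after ratio scaling and up to 24.2 TPM under the other scalings.

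Replicate numbers repeat across genotypes, but no pairing by number was seen in the values. Of 12 pairs with the same number 0 had deviations correlated above 0.1 (-0.0954 to 0.0745). Whether such embryos were littermates or processed together cannot be told from this. With the replicate block the members called were 8, 0 and 2 as deposited and 3, 0 and 0 after centring.

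Some changes reversed sign, none of them called under either setting. In dKO against cKO, Pecam1 was 0.0070 after centring with or without the filter, 0.010 with a pseudocount of 0.1 as well, and 0.015 after ratio scaling. Cdh5 was 0.20 after centring with or without the filter, 0.18 with a pseudocount of 0.1 as well, 0.068 after protein-coding rescaling, 0.13 after ratio scaling, 0.065 with sample weights and -0.18 to 0.093 on leaving out 1 embryo. Pdgfrb was 0.24 after centring and -0.090 to 0.038 on leaving out 1 embryo, and Kcnj8 0.068 after centring. Angpt1 was 0.21 after centring, 0.24 with a pseudocount of 0.1 as well, 0.10 after protein-coding rescaling, 0.18 after ratio scaling and -0.13 to 0.0014 on leaving out 1 embryo. Pdgfb was 0.21 after centring and -0.14 to 0.031 on leaving out 1 embryo. Wnt7a was 0.082 after centring, 0.070 with a pseudocount of 0.1 as well and 0.048 after ratio scaling. In cKO against control, Pdgfrb was -0.055 and Pdgfb -0.0078 after centring. With centring as a factor on TPM, the cKO mean of Pdgfrb stayed above its control mean (0.565 and 0.459 TPM). Vegfa was -0.18 after centring, -0.073 after protein-coding rescaling, -0.21 after ratio scaling, -0.23 centred with a pseudocount of 0.1 and -0.023 to 0.13 on leaving out 1 embryo. The depth of the libraries is unknown, which limits what can be said of members near or below 1 TPM.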
